A study of Mus musculus with 2 samples.

Results

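The nuclear genes that encode the subunits of the oxidative phosphorylation system were described by the accessibility of their promoters in the aged mouse thymus. They were chosen by symbol from the GENCODE vM21 annotation as protein-coding genes whose names start with Nduf, Uqcr or Atp5, the exact symbols Sdha to Sdhd, and Cox followed by a digit from 4 to 8. This gave 93 genes of 21911 nuclear protein-coding genes. The prefixes also took in the 8 Ndufaf assembly factors of complex I, the supercomplex factor Cox7a2l and Atp5s, a protein named for coupling of the ATP synthase. The subunits encoded by mitochondrial DNA were not among them.

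Thymus of female B6CASTF1/J mice, a cross of B6 with CAST, at an age of 18 to 20 months, was assayed by DNase-seq, which reads the places where DNase I cuts open chromatin. There were 2 libraries, replicates 1 and 2, in 1 group, with no younger or other-tissue group to compare. The labels give them a common donor and different biosamples, so their spread may be a technical one, and every comparison below is between genes of the same 2 libraries and is a description without a test. The tissue was used whole, so open chromatin in few cells and weakly open chromatin in many cells cannot be told apart.

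The respiratory chain passes electrons from NADH through complex I, or from succinate through complex II, to ubiquinone, then through complex III and cytochrome c to complex IV, where oxygen is reduced. Complexes I, III and IV pump protons across the inner mitochondrial membrane, and complex V, the ATP synthase, uses the gradient to make ATP. Most of the nuclear subunits are needed in every cell with mitochondria, but several subunits of complex IV have a second gene used in muscle, testis or other tissues.

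The authors deposited a shorter and a longer peak list for each library, with 50648 and 49872 peaks in the shorter lists of replicates 1 and 2, 77453 and 79004 in the longer ones, and 223227 and 247677 footprints, which are short stretches protected from cutting inside open DNA. Sequencing depth is not stated. The signal values rose in steps of 0.00895 in replicate 1 and 0.00652 in replicate 2, and the median strongest promoter peak of a member held 861 and 1043 such steps. If a step were 1 independent cut, that would be a counting error of 3.41% and 3.1%, which covers counting error only. Of 16 thymocyte marker genes, 14 had a promoter peak of the shorter list in both libraries and all 16 had one of the longer list, and Cd4 and Dntt were the 2 seen in replicate 2 only in the shorter list.

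A promoter was called open where a peak of the shorter list had its centre within 1 kb of any annotated start site in both libraries. By that rule 87 of the 93 oxidative phosphorylation genes (93.5%) were open, against 53.4% of all nuclear protein-coding genes. In the longer list 88 (94.6%) were open, against 57.8% of all genes. A footprint lay within 1 kb of a start site in both libraries at 87 members (93.5%), against 56.4% of all genes. Each of the 85 members that are not tissue-restricted isoforms was open, in all 5 complexes and among the assembly factors. The 6 members without an open promoter were all tissue-restricted isoforms of complex IV. High shares were also found in other sets of genes used in every cell: 78 of 78 genes of the mitochondrial ribosome were open, and 80 of 83 of the cytosolic ribosome, so the share is not particular to the respiratory chain.

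The signal of a promoter was taken from the strongest peak within 1 kb of a start site, in the units of the deposited lists, and pairs of values are given for replicate 1 and then replicate 2 unless stated. The median over the open members of the mean of both libraries was 7.44, against 5.59 over all 11703 open genes, and 64 of the 87 open members (73.6%) lay above that median. The mitochondrial ribosomal genes had a median of 6.21 and the cytosolic ribosomal genes one of 8.05. The members spread widely, with a mean signal of 1.69 at Ndufc2 and 19.5 at Atp5g1. Complex II had the highest median, 8.44 over 4 genes, and complex IV the lowest, 5.39 over its 14 open genes, and these 2 kept their places in each library and under each alternative listed for the medians. Between them lay complex V with 8.15 over 17 genes, complex I with 7.59 over 36, the complex I assembly factors with 7.45 over 8, and complex III with 6.67 over 8. The order of complexes V and I and the assembly factors was not stable: in replicate 1 the assembly factors had 8.63, complex V 7.98 and complex I 7.83. The median of complex IV lay near that of all open genes, under it by the main rule and above it by some alternatives, as with the peak nearest to a start, where complex IV had 5.3 and all open genes 4.97 as the mean of both library medians. The medians of the complexes differed by less than the range of signals inside each of the complexes I, III, IV and V.

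**Figure D1:**
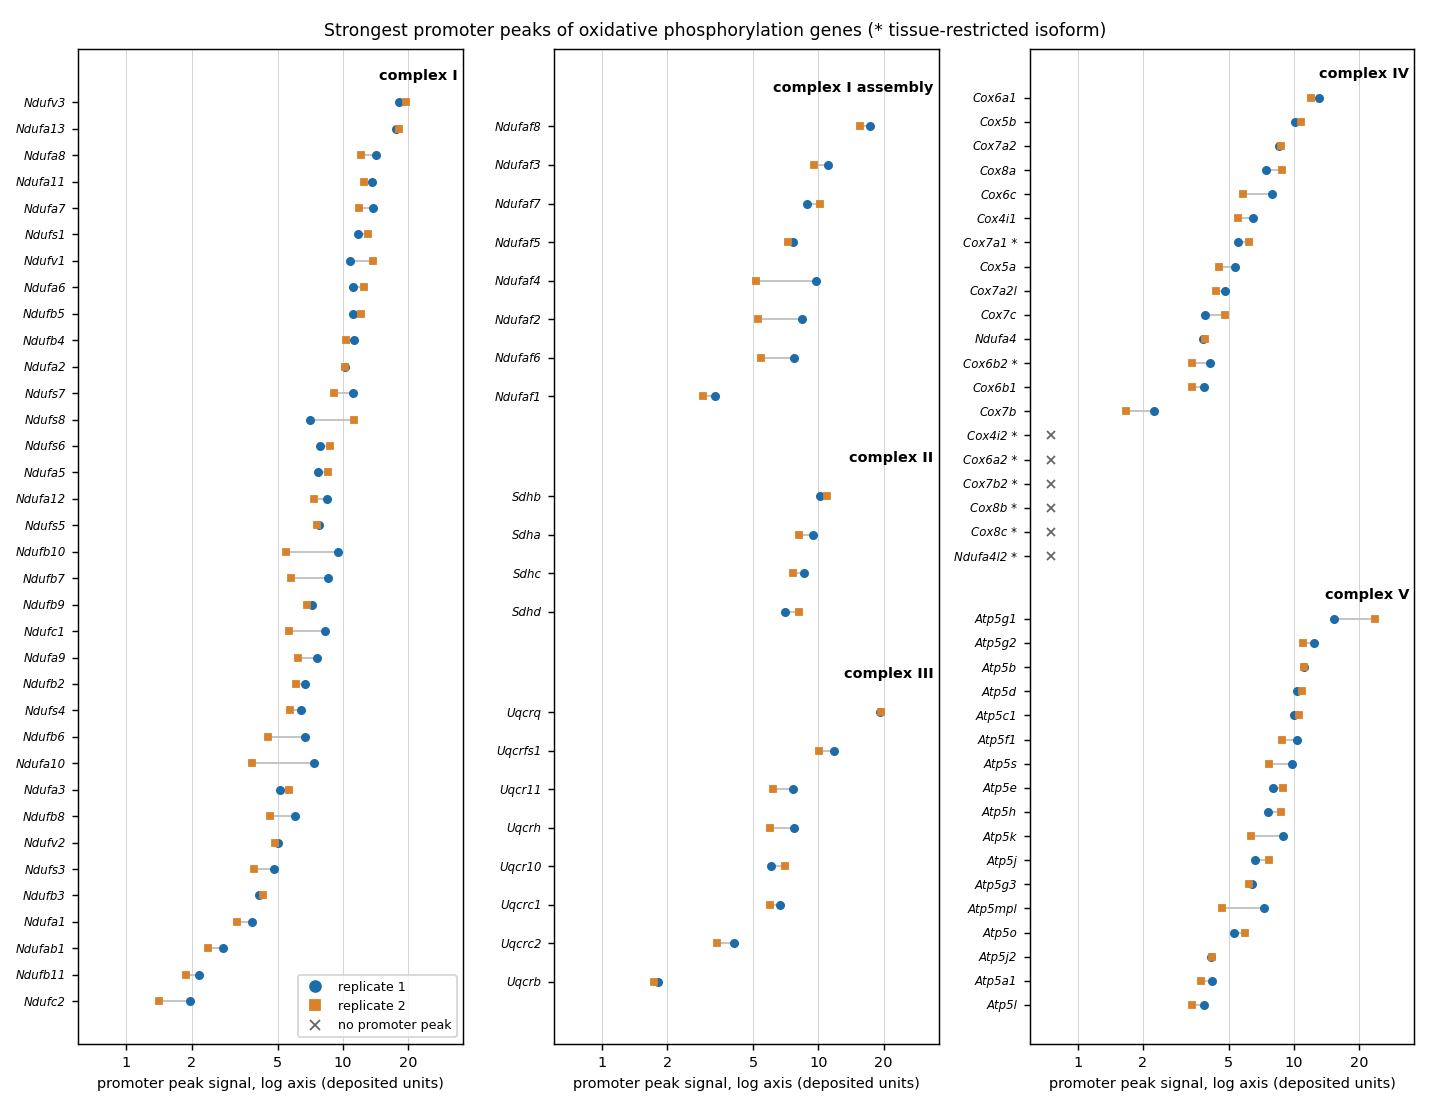
Signal of the strongest promoter peak of the genes, except 1 that is not shown, on a log axis in deposited units, by complex, with replicate 1 as circles and replicate 2 as squares. Crosses mark the 6 genes without a promoter peak of the shorter list, all of them tissue-restricted isoforms (asterisks), and the open genes run from a mean of 1.69 at Ndufc2 to 19.5 at Atp5g1.

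Complex I, the NADH dehydrogenase, has a core that carries out electron transfer and many accessory subunits around it. The 7 nuclear core genes had a median signal of 10.2 and the 29 accessory genes one of 7.18. Ndufs1, the large iron-sulfur subunit, had a signal of 11.8 in replicate 1 and 13.1 in replicate 2, and Ndufv1, which binds FMN and NADH, had 10.8 and 13.8. Ndufs7, which lines the ubiquinone site, had signals of 11.2 and 9.15. The core genes Ndufv2 and Ndufs3 were weaker, at 5.04 and 4.84, and at 4.82 and 3.88, so the core was not uniformly high. The peak of Ndufs3 also lay near a start of Kbtbd4. No peak lay nearer to a start of Ndufs3 than to that of another gene.

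The highest accessory gene was Ndufv3, a small subunit of the NADH-oxidising module, with signals of 18.1 in replicate 1 and 19.5 in replicate 2 at a peak centred at -44 bp from its start in both libraries, where negative distances are upstream. Ndufa13, also known as GRIM-19, followed with 17.7 and 18.1, but this peak was centred at -763 and -783 bp from its start and within 1 kb of a start of Yjefn3. Counting only peaks nearer to its own start than to that of another gene, Ndufa13 had a signal of 1.44 in replicate 1 and no such peak in replicate 2. Ndufa8 had 14.3 and 12.2 at its start. The weakest were Ndufc2 with 1.97 and 1.41, Ndufb11 with 2.17 and 1.88, and Ndufab1, the mitochondrial acyl carrier protein, with 2.78 and 2.37; these 3 were picked for their low values. The peak of Ndufb11 was centred at -382 and -322 bp from its start, near a start of Rbm10, and no peak lay nearer to its own start than to that of another gene. Ndufb11 is on the X chromosome, as are Ndufa1, with 3.82 and 3.26, and Cox7b of complex IV, with 2.25 and 1.68. The part of this position in their low signals was not tested. Among the assembly factors, Ndufaf8 had 17.3 and 15.5 at a peak nearer to a start of Tepsin than to its own, Ndufaf3 had 11.1 and 9.54, and Ndufaf7 had 8.85 and 10.2, while Ndufaf1 was the lowest with 3.31 and 2.93.

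Complex II, succinate dehydrogenase, is the only complex here with all subunits encoded in the nucleus, and its 4 genes lay close together. The iron-sulfur subunit Sdhb had a signal of 10.2 in replicate 1 and 10.9 in replicate 2, and the flavoprotein Sdha had 9.48 and 8.12. The membrane anchors were a little lower, with 8.58 and 7.59 at Sdhc and 7.02 and 8.09 at Sdhd. Over the means of both libraries the set ran from 7.55 to 10.5, and all 4 lay above the median of all open genes.

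In complex III, the cytochrome bc1 complex, the accessory gene Uqcrq stood far above the rest, with signals of 19.2 and 19.5. The Rieske iron-sulfur protein gene Uqcrfs1 had 11.8 and 10.1, and Uqcr11 had 7.61 and 6.17. The core proteins Uqcrc1, with 6.67 and 6, and Uqcrc2, with 4.08 and 3.4, were in the middle and lower part of the set. Uqcrb was the lowest, with 1.81 and 1.74.

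In complex V, subunit c of the rotating ring is encoded by 3 genes as the same mature protein, and their promoters differed widely. Atp5g1 had 15.3 in replicate 1 and 23.7 in replicate 2, Atp5g2 had 12.4 and 11, and Atp5g3 had 6.41 and 6.22. The order of the 3 ring genes was the same in both libraries, and no value of 1 gene overlapped those of another. In the catalytic F1 head, Atp5b, the beta subunit, had 11.1 in both libraries, Atp5d 10.3 and 10.9, Atp5c1 9.98 and 10.5, and Atp5e 7.98 and 8.86. The alpha subunit gene Atp5a1, whose product stands in the head in equal number with beta, had 4.19 and 3.7, the lowest of the 5 F1 genes in both libraries. The 8 genes of the stalk and membrane part had a median of 6.54. One of them, Atp5f1, rested on its neighbour: its strongest peak, with 10.3 and 8.77, lay 748 and 728 bp downstream of its start and within 1 kb of a start of Wdr77, and peaks nearer to its own start had only 0.823 and 0.554.

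The isoform genes of complex IV, cytochrome c oxidase, divided sharply. All 12 genes other than the restricted isoforms were open, while 2 of the 8 tissue-restricted isoforms were. Cox6a2, Cox8b and Cox7a1 are the isoforms of heart and skeletal muscle, Cox6b2, Cox7b2 and Cox8c those of testis, Cox4i2 that of lung and of cells that sense low oxygen, and Ndufa4l2 an isoform of Ndufa4 induced by low oxygen. Cox6a2, Cox7b2, Cox8b, Cox8c and Ndufa4l2 had no peak within 1 kb of a start in either list of either library, no footprint there, and no run of bases with a q-value. The general isoforms of the same families had clear peaks. Cox6a1 had signals of 13 and 12, Cox8a had 7.39 and 8.83, Ndufa4 had 3.81 and 3.89, and Cox7b, the weakest, had 2.25 and 1.68.

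Cox4i2 had a peak in the longer list only, with signals of 1.07 in replicate 1 and 0.822 in replicate 2, and 1 footprint in replicate 1 and 0 in replicate 2. The smallest deposited q-value near its start was 0.00113 and 0.0327, against 4.82e-55 and 6.24e-43 at Cox4i1, whose peak signals were 6.49 and 5.52. Of the restricted isoforms, 2 were open. Cox7a1 had signals of 5.51 and 6.2, against 8.56 and 8.7 at Cox7a2. Cox6b2 had 4.09 and 3.39, against 3.84 and 3.37 at Cox6b1, so here the values of the testis isoform and the general isoform overlapped. Both peaks lay at the start site, centred at -3 and -13 bp from it at Cox7a1 and at -37 and -27 bp at Cox6b2, and neither was within 1 kb of a start of another protein-coding gene. Footprints numbered 5 and 8 at Cox7a1 and 6 and 7 at Cox6b2.

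**Figure D2:**
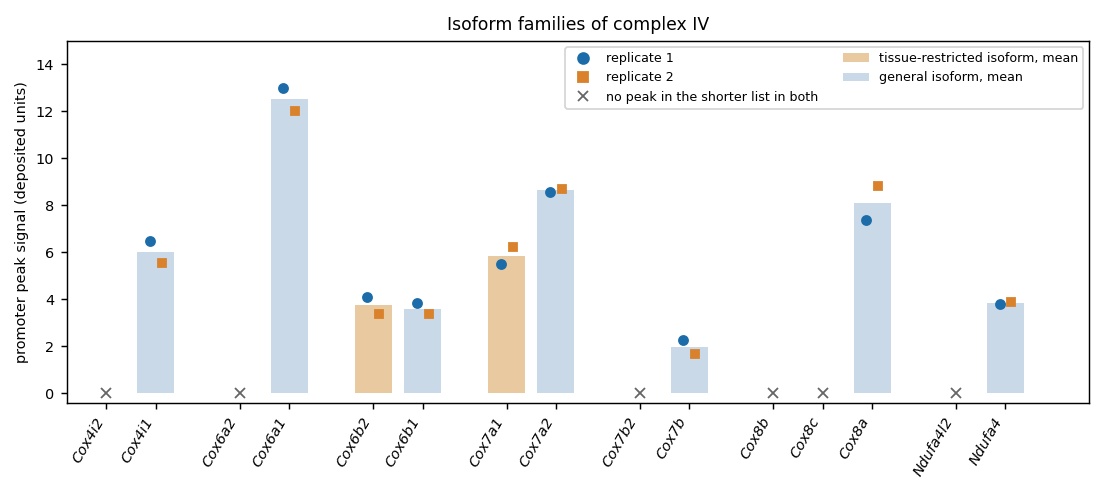
Promoter peak signal in deposited units for the isoform families of complex IV, with restricted isoforms in tan left of the general isoform in blue. Bars are means of the 2 libraries, circles are replicate 1 and squares replicate 2. Cox7a1 and Cox6b2 are the only restricted isoforms with bars, and crosses at 0 mark genes without a peak in the shorter list.

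Markers of other tissues that could carry these isoforms were mostly closed. Of 12 skeletal muscle genes 1 was open, Mylpf, with 9.74 and 6.95 at a peak near a start of another gene, and Myod1, Myog, Acta1 and Ckm had no peak of the shorter list. Of 8 fat genes none was open in both libraries, with Adipoq and Plin1 among those without a peak in either list and Ucp1 listed only in replicate 2 of the longer list, with 0.333. Of 12 male germ line genes 3 were open, Dazl with 5.15 and 3.57, Prm1 with 3 and 3.63, and Tnp2 with 2.51 and 2.67, and Ddx4 had no peak in either list. Sycp1 and Sycp3 had none in the shorter list and, in the longer one, 0.261 in replicate 2 and 0.412 in replicate 1. The strongest peaks of Dazl, Prm1 and Tnp2 were not all at a start. Of these peaks, 33.3% in replicate 1 and 66.7% in replicate 2 were centred within 250 bp of one. Of 8 pericyte and vascular muscle genes 2 were open, Kcnj8 with 0.877 and 0.907 and Notch3 with 2.97 and 2.22. In the longer list, which holds the peak of Cox4i2, 3 of the 8 had a peak in both libraries, the third being Myh11 with 0.823 and 0.437, and Pdgfrb had 0.966 in replicate 1 only. The part of such cells in the peaks of Cox7a1, Cox6b2 and Cox4i2 was not tested.

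The closed isoforms differed in how far the next open region was. The nearest peak of the shorter list to Ndufa4l2 was centred 1946 and 1966 bp from its start, with signals of 6.03 and 3.56, and the nearest to Cox6a2 was centred 2004 and 2002 bp away, with 1.47 and 0.776. Neither of these was within 1 kb of a start of another gene, and both count as open when the window is widened to 2500 bp, which raises the count of open restricted isoforms to 4. At Cox8b the nearest peak was 2995 bp away in both libraries, with 2.83 and 1.31. At Cox7b2 no peak lay closer than 620006 bp in replicate 1 and 355346 bp in replicate 2.

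The isoforms also differed in sequence. In the 300 bp from 250 bp upstream to 50 bp downstream of the start, the ratio of observed to expected CpG dinucleotides had a median of 0.833 over the 85 open general members, close to 0.792 over all open genes and far above 0.229 over genes without an open promoter. Over the 8 restricted isoforms it was 0.368, with a range from 0.115 at Cox8b to 0.564 at Cox7b2. The open isoforms Cox7a1 and Cox6b2 had 0.304 and 0.432, so both were open with CpG content well under that of most members. Cox7b (0.368), Ndufb10 (0.353), Sdhb (0.36) and Atp5f1 (0.217) were general members with similar or lower ratios. The strongest peak of Atp5f1 lay near Wdr77, however, and peaks nearer to its own start had only 0.823 and 0.554.

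The upstream sequences of 2 isoform families are shown so that an open and a closed restricted promoter can be set against their general partners. They end at the annotated start of each gene, run 5′ to 3′ on the strand of the gene, and carry in capitals the bases that lay under footprints of both libraries. They come from the promoter table of RefSeq on GRCm38.p6, in which 74 of the 93 members matched by symbol. Cox7a1 is at chr7:30183921-30184143 on the plus strand, Cox7a2 at chr9:79759879-79760103 on the minus strand, Cox8b at chr7:140900447-140900696 and Cox8a at chr19:7217617-7217866, both on the minus strand.
Cox7a1: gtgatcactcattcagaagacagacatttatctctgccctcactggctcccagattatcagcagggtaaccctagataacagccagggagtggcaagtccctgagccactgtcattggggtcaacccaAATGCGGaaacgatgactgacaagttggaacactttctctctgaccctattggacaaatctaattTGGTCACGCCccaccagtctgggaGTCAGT
Cox7a2: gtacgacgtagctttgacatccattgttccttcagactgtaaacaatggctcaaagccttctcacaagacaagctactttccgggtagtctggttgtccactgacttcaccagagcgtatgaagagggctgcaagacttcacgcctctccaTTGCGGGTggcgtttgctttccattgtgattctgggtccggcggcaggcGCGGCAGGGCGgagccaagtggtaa
Cox8b: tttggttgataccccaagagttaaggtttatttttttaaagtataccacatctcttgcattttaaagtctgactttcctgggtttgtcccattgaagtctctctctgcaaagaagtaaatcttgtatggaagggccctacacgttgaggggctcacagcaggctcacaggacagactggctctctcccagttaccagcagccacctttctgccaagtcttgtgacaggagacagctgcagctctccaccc
Cox8a: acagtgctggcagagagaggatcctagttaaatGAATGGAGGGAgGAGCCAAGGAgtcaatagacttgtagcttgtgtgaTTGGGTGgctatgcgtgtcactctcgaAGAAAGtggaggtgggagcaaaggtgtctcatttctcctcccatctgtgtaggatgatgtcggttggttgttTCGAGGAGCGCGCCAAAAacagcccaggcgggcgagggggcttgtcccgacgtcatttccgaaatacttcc

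In these stretches footprints shared by both libraries covered 23 of 223 bases at Cox7a1, 19 of 225 at Cox7a2 and 52 of 250 at Cox8a, and none of the 250 at Cox8b. The open muscle isoform thus had about as many shared footprint bases upstream of its start as its general partner, but only in these stretches. The peak of Cox7a2 was centred 77 bp downstream of its start in both libraries, outside the stretch shown. Within 1 kb of a start Cox7a2 had 11 and 9 footprints, of which 9 and 8 were shared. At Cox7a1 these counts were 5 and 8, of which 5 and 6 were shared.

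Oxidative phosphorylation genes often lay beside other genes. The strongest promoter peak was within 1 kb of a start of another protein-coding gene in both libraries at 31 of the 87 open members (35.6%), against 19.5% of all open genes. Genes of the mitochondrial ribosome had a higher share, 42.3%, and those of the cytosolic ribosome 17.5%, so it was not particular to the respiratory chain. Among members the share was 38.9% in complex I, 75% in complex II and 7.14% in complex IV. A gene running the opposite way started within 1 kb upstream of 26 members (29.9%), against 15% of open genes. Some partners, picked after the list was seen, are given as examples. Ndufs6 and Mrpl36, a gene of the mitochondrial ribosome, start 51 bp apart, Sdhd and Timm8b, of the import machinery, 98 bp apart, and Ndufa7 and Rps28, of the cytosolic ribosome, 10 bp apart. Ndufs1 starts 93 bp from Eef1b2, a translation elongation factor gene, and Ndufb11 starts 3 bp from Rbm10. The strongest peak near Atp5j, with 6.57 and 7.68, was also that of Gabpa, which encodes a subunit of the GABP factor, and the peak nearest to the start of Atp5j had 4.13 and 2.78. In such places a peak cannot be given to 1 gene. Leaving out all peaks near another gene kept 57 members open, and keeping only peaks nearer to the gene's own start than to that of another gene kept 77.

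The promoter windows were searched on both strands for 9 short consensus sequences of factors known to bind housekeeping and respiratory promoters. NRF1, nuclear respiratory factor 1, is the best known of them and binds as a dimer to a palindrome, so that overlapping matches on both strands are counted once per gene. The searched letters were GCGCATGCG for NRF1, CCGGAAG for ETS factors including GABP, AAGATGGCG for YY1, TGACGTCA for the cAMP response element (CRE), GGGGCGGGG for SP and KLF factors, TCAAGGTCA for oestrogen-related receptors (ERR), CCAAT for NF-Y, TATAAA for the TATA box, and ACTACAATT for the element of ZNF143 and THAP11. A match is a description of letters, and no match says only that these letters were not in the window.

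NRF1 letters were found near 14 of the 87 open members (16.1%), against 6.1% of open genes. They lay under a footprint of both libraries at 13 of them (14.9%), against 5.48% of open genes, 8.97% of the open mitochondrial ribosomal genes and 5% of the open cytosolic ribosomal genes. The 13 were Ndufa8, Ndufa11, Ndufa13 and Ndufs8 in complex I, the assembly factors Ndufaf4 and Ndufaf5, Uqcr11 and Uqcrc1 in complex III, Cox6a1 and Cox6c in complex IV, and Atp5g2, Atp5k and Atp5l in complex V, with none in complex II. The 24 matches at members were counted on each strand, so a palindrome can be counted on both. Of the 24, 19 were centred within 150 bp of a start. Each of the 15 that lay inside peaks of both libraries was footprinted in both, and these 15 stood at 9 members. Over all open genes 940 of the 977 such matches, which stood at 577 genes, were footprinted in both. At Ndufa13 the match was centred at -777 bp from the start, in the peak near Yjefn3 described above. The NRF1 sites of 8 members are shown, because NRF1 takes its name from respiratory genes and its letters were more frequent at members than at open genes, with the matched letters in capitals and 10 bases on each side, 5′ to 3′ on the strand of the gene, from GRCm38.
Ndufa11 (chr17:56717692-56717720, plus): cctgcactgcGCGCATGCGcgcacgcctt
Ndufs8 (chr19:3912523-3912551, minus): gcaccctcagGCGCATGCGctgcctcgcc
Ndufaf5 (chr2:140170652-140170680, plus): agtcccgttgGCGCATGCGcctaatagaa
Uqcrc1 (chr9:108936668-108936696, plus): actccgctctGCGCATGCGcagcgcggct
Cox6a1 (chr5:115349102-115349130, minus): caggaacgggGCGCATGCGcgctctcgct
Cox6c (chr15:35938170-35938198, minus): atcgactcttGCGCATGCGtgctgctgga
Atp5g2 (chr15:102671071-102671099, minus): ggctccggccGCGCATGCGcagagccttc
Atp5k (chr5:108434431-108434459, minus): tttcactgcgGCGCATGCGcctttctggc

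YY1 letters were near 18 open members (20.7%), against 7.76% of open genes, and lay under footprints of both libraries at 7 (8.05%), against 3.2% of open genes. The ribosomal sets were alike in this: 7.69% of the open mitochondrial and 7.5% of the open cytosolic ribosomal genes had a footprinted match, and 15.4% and 12.5% had the letters. The 7 members included Ndufa2, Ndufs7, Ndufaf8, Uqcrh, Atp5a1 and Atp5h. With replicate 2 alone the count of footprinted members was 13, and with replicate 1 alone it was 7. Of the 10 YY1 matches at members that lay inside peaks of both libraries, 2 were footprinted in both (20%). That share was higher elsewhere, at 48.6% for all open genes, 50% for open mitochondrial and 57.1% for open cytosolic ribosomal genes. The consensus holds the letters ATG. At 10 of its 19 matches near members (52.6%) that triplet was an annotated start codon of the gene, against 33.4% of the 953 matches near open genes. Start codon matches of this kind stood at 10 members (11.5%), against 2.72% of open genes. They included Atp5j2, Ndufa2, Ndufa6, Ndufa9, Ndufc1, Ndufs4, Ndufs6, Ndufs7 and Uqcrc1. Of the 10 start codon matches 3 were footprinted in both libraries, and of the 9 other matches 5 were; over open genes these counts were 132 of 318 and 254 of 635, which are nearly equal shares. The sites of 4 genes with the start codon inside the match are shown with the matched letters in capitals in the same way. Not all of these were footprinted. The match of Ndufs7 was footprinted in both libraries, that of Uqcrc1 in replicate 2 only, and those of Ndufs6 and Ndufa9 in neither. The match of Ndufs7 lay outside the peaks of both libraries. Sites of 2 genes with a match upstream follow, where the letters read on the other strand. The upstream matches shown were centred at -339 bp at Uqcrh and -207 bp at Atp5h. Opposite genes start 198 bp from Uqcrh (Lrrc41) and 166 bp from Atp5h (Kctd2). Both matches thus lay beyond a start of the neighbour and cannot be given to the member alone.
Ndufs7 (chr10:80249463-80249491, plus): ggccgaggccAAGATGGCGgcgctggcgg
Ndufs6 (chr13:73328431-73328459, minus): ggtcaccggcAAGATGGCGgcggtgctga
Ndufa9 (chr6:126849097-126849125, minus): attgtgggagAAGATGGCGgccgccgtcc
Uqcrc1 (chr9:108936706-108936734, plus): cggaagttagAAGATGGCGgcgtccgcag
Uqcrh (chr4:116075396-116075424, minus): cctcgggcgcCGCCATCTTggggaggtgc
Atp5h (chr11:115420155-115420183, minus): gctgcagctcCGCCATCTTgggccgccgc

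The letters of the oestrogen-related receptors, whose family is known for driving respiratory genes with the coactivator PGC-1 alpha, were near 19 open members (21.8%), against 5.64% of open genes, 7.69% of the mitochondrial and 3.75% of the cytosolic ribosomal genes that were open. They were near 7 of the 17 genes of complex V, 5 of complex I, 3 of complex IV and 2 each of complex II and of the assembly factors, and near none of complex III. None of these matches was under a footprint of either library, and over all open genes 0.0513% had one under footprints of both. Most were away from open DNA: 2 of the 20 matches lay inside peaks of both libraries, those of Atp5g3 and Sdhd, against 23 of 690 at all open genes, and these are shown with the matched letters in capitals.
Atp5g3 (chr2:73911360-73911388, minus): tgttacaaagTGACCTTGAgcgtcttccc
Sdhd (chr9:50603795-50603823, minus): ggttgtagagTGACCTTGAgccctcgaaa

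The other consensus sequences gave mixed shares. ETS letters were near 34 members (39.1%), against 40.6% of open genes, and footprinted in both libraries at 13 (14.9%), against 15.5%. SP and KLF letters were near 25 members (28.7%), against 44.4% of open genes, and footprinted at 15 (17.2%), against 28.9% of open genes. The ribosomal sets were as low, with letters near 25.6% of the mitochondrial and 23.8% of the cytosolic genes and footprinted at 17.9% and 11.2%. These letters are all G or C. In the 300 bp around the start, the median GC content was 57% over open members and 61.7% over open genes. The part of GC content in the lower share was not tested. CRE letters were footprinted at 5 (5.75%), against 4.77%. NF-Y letters were near 81 members (93.1%), against 92.5% of open genes, and footprinted at 20 (23%), against 17.2% of open genes. TATA letters were near 57 members (65.5%), against 59.2% of open genes, and footprinted in both libraries at none, against 1.4% of open genes. The element of ZNF143 and THAP11 was footprinted at 2 members (2.3%), Atp5d and Uqcr10, against 0.607% of open genes. All of these shares describe counts of genes, and windows of members and of other genes can differ in length where a gene has several start sites.

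**Figure D3:**
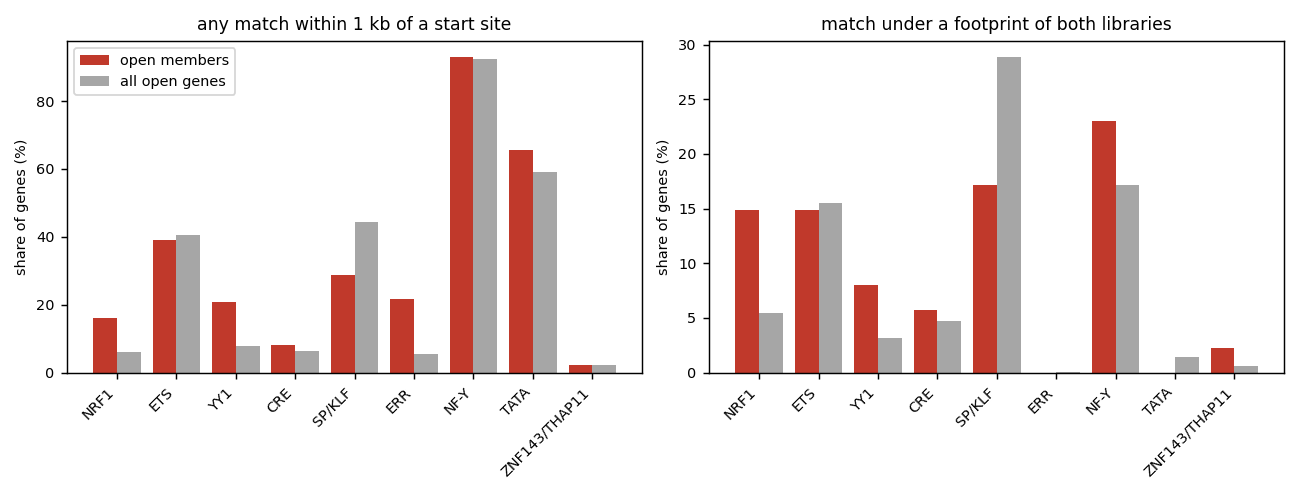
Share of genes, in percent, with each of the 9 consensus sequences within 1 kb of a start site (left) and under a footprint of both libraries (right), for the 87 open members in red and all 11703 open genes in grey. NRF1 and YY1 letters stand higher in the members in both panels, ERR letters in the left panel only, and SP and KLF letters stand lower.

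Footprints followed the start sites closely. The open members had a median of 8 footprints within 1 kb of a start in replicate 1 and 9 in replicate 2, against 9 and 10 over all open genes. By the sum of both libraries Atp5j had the most, 21 and 19, followed by Atp5d with 16 and 23, Uqcrh with 18 and 18, Ndufs1 with 18 and 17 and Ndufb11 with 16 and 18. Ndufb11 thus had many footprints with 1 of the weakest peak signals. Of the footprints of members 74.5% in replicate 1 and 65.5% in replicate 2 overlapped one of the other library by at least 1 bp, against 67% and 60.6% near all genes. Counted from the start nearest to the strongest peak, footprints were densest in the 50 bp just upstream, with 1.13 and 1.09 per open member, against 0.96 and 0.958 per open gene. A second rise lay 50 to 99 bp downstream, with 1 and 0.977 per member, against 0.746 and 0.803. Further out the members had fewer, with 0.023 in both libraries at 450 to 499 bp downstream, against 0.117 and 0.139.

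**Figure D4:**
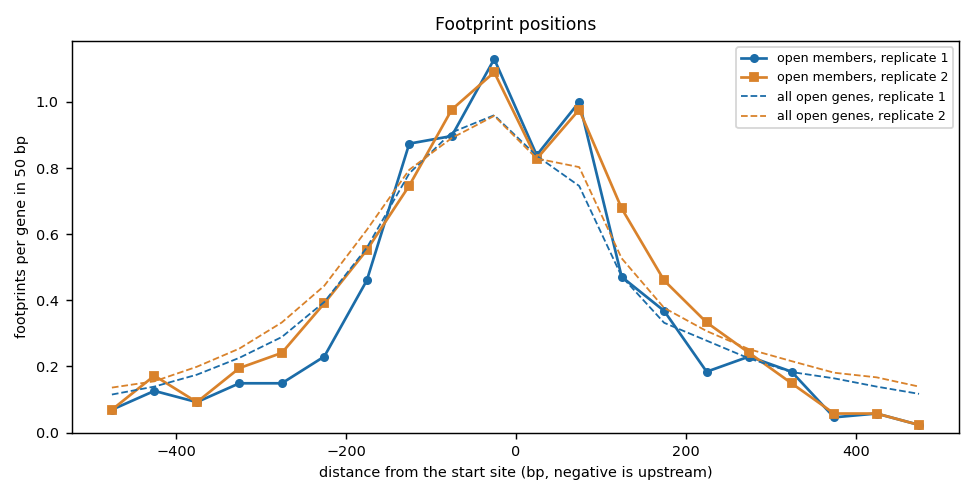
Footprints per gene in bins of 50 bp against the distance from the start site in bp, with open members as solid lines with markers and all open genes as dashed lines, replicate 1 in blue and replicate 2 in orange. The members peak just upstream of the start, at 1.13 and 1.09, and again 50 to 99 bp downstream, and fall below the open genes beyond about 350 bp on the downstream side.

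The libraries gave a similar order of members. Across the 87 open members the log2 signals of replicates 2 and 1 had a Spearman rho of 0.891 and a Pearson r of 0.933, a description over genes that share the same 2 libraries. Over all open genes they were 0.966 and 0.968. After the median log2 ratio of replicate 2 to replicate 1 over all open genes, -0.14, was subtracted, 6 members (6.9%) differed by more than 0.5 on the log2 scale, against 12.2% of open genes. Higher in replicate 2 were Ndufs8, an iron-sulfur core subunit, with 11.3 in replicate 2 and 7.09 in replicate 1 (a centred log2 ratio of 0.82), and Atp5g1, with 23.7 in replicate 2 and 15.3 in replicate 1 (0.78). Lower in replicate 2, with the value of replicate 2 given before that of replicate 1, were Ndufa10 with 3.82 and 7.33 (-0.80), Ndufaf4 with 5.15 and 9.73 (-0.77), Ndufb10 with 5.49 and 9.51 (-0.65) and Ndufaf2 with 5.24 and 8.41 (-0.54). Of the 6, 2 were assembly factors of complex I and 3 were subunits of it.

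**Figure D5:**
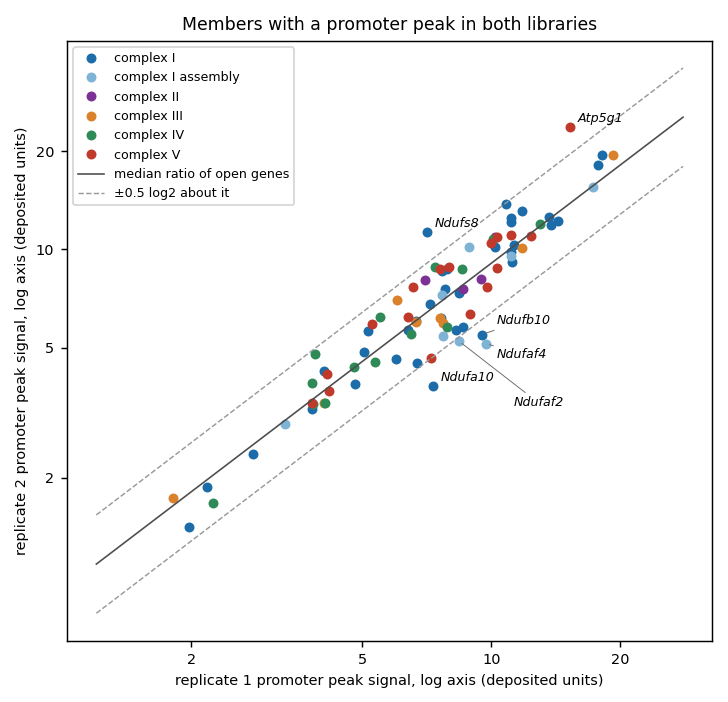
Promoter peak signal of the 87 open members in replicate 2 against replicate 1, both on log axes in deposited units and coloured by complex. The solid line is the median ratio of all open genes and the dashed lines lie 0.5 on the log2 scale from it; the 6 named genes fall outside them.

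Genes that work with the subunits were open to a like extent. Of 57 related genes, made up of carriers, assembly factors and regulators, 54 (94.7%) were open, against 53.4% of all genes, with a median signal of 7.40. The highest were the regulator Esrra, the gene of oestrogen-related receptor alpha, with 27.8 and 30.5, the complex IV assembly factor Cox18 with 14.6 and 19.1, and the complex I assembly factor Foxred1 with 16.1 and 16.9. Cycs, somatic cytochrome c, had 13.5 and 12.6, while Cyct, the testis form of cytochrome c, had no promoter peak in either library. Sdhaf1, an assembly factor of complex II, had none either, and Ppargc1a, which encodes PGC-1 alpha, had a peak in replicate 2 only, with 0.489. Among 12 processed pseudogenes with names like those of members, 1 had a promoter peak in both libraries, Ndufs6b, with 2.29 and 1.23.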

How the data were processed

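Peak lists, footprints and base runs of DNase-seq of 2 thymus libraries were used as the authors deposited them, made per library on mm10 per the file notes. Neither aligner nor caller is named, and their versions and thresholds are likewise not given in the sources used here. A peak's signal is a signal value per peak deposited without a stated scale, and all signal values were whole multiples of 1 step per library within 0.1 steps. The q-value of base runs is as the authors deposited it. The footprint files deposited by the authors hold a constant score of 0.01, so footprints could not be ranked. Reads of CAST origin may map less well to the reference, which was not analysed here.

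The shorter list was the main one. A peak belonged to a gene if its centre lay no more than 1 kb from any start site of a protein-coding gene in the GENCODE vM21 basic annotation (41520 start sites), the strongest peak gave the signal, and footprints and motif matches within 1 kb were counted by any overlap. Sequence came from GRCm38, read with pysam 0.24.0. Overlaps of base runs used bedtools 2.31.1, and numbers numpy 2.4.6 and pandas 2.3.3 in python 3.11.15. The counting steps were tested on simulated data. With 2 libraries in 1 group no comparison between conditions and no test was made. Genes named were every isoform gene, the 3 highest per complex, those without an open promoter, the 5 with the largest difference between libraries, the 5 with the most footprints, those with a footprinted NRF1 or YY1 match, and, of the related genes, the 3 highest and those not open; the other genes named, including those beside a neighbour, were chosen after their values were seen. The values of 1 member are counted but not reported here by name. The members, lists and alternatives were chosen with earlier results of these data known.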

Additional observations from a re-analysis of the deposited data

How the results depend on the processing

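Of 162 values recomputed under alternatives, 142 stayed within the limits set (1.5 times for a count, 1 SD of the libraries for a signal). Members with an open promoter numbered 87, and 57 when peaks near another protein-coding gene were left out. Open restricted isoforms numbered 2, and 4 with a window of 2500 bp. Members with a footprinted YY1 match numbered 7 in both libraries, and 7 and 13 with 1 library left out. Members with a footprinted TATA match numbered 0 in both libraries, and 0 and 1 with 1 library left out. Members that differed by more than 0.5 between libraries numbered 6, and 11 with no centring. The median signal of the open members, as the mean of both library medians, was 7.25 and ran from 6.8 to 7.7 over its alternatives. By complex it ran from 6.81 to 7.83 in complex I, 6.35 to 8.63 in its assembly factors, 8.1 to 10.5 in complex II, 6.09 to 7.14 in complex III, 5.04 to 5.52 in complex IV and 6.8 to 7.98 in complex V, and from 4.97 to 6.39 over all open genes. Complex IV was above all open genes with the longer list, without peaks near another gene, with the peak nearest to a start and without replicate 1. Keeping only peaks nearer to the gene's own start, an alternative chosen after seeing the data, left 77 members open. No paired analysis was possible because there was 1 group. The number of libraries, 2, limits every value. Depth and the rule behind each list are not stated, so a peak missing from a list does not show that the site was closed. Cox4i2 was missing from the shorter list but had signals of 1.07 in replicate 1 and 0.822 in replicate 2 in the longer one.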
